A study of Mus musculus with 18 samples.

Results

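The Lhx genes examined here encode 8 LIM homeodomain transcription factors, Lhx1, Lhx2, Lhx3, Lhx4, Lhx5, Lhx6, Lhx8 and Lhx9. They were taken by symbol from the deposited table of expression values, in which 13 transcripts belonged to them out of 29851 transcripts, or 8 of 23421 genes. Each protein carries a pair of LIM domains, zinc-binding modules that contact other proteins, and a homeodomain that binds DNA. The LIM domains recruit the cofactor Ldb1, and LIM-only proteins compete for the same cofactor. Members come in closely related pairs (Lhx1 with Lhx5, Lhx2 with Lhx9, Lhx3 with Lhx4, Lhx6 with Lhx8) and act in neuron subtype choice, forebrain, eye, limb, pituitary, kidney and gonad development. In ES cells many developmental transcription factor genes of this kind carry lysine 27 methylation of histone H3 placed by Polycomb repressive complex 2 (PRC2), of which Eed is a core subunit.

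RNA was sequenced in 6 libraries, 1 per group, from mouse cells of 129/Ola background. The EB Eed KO and EB wild type libraries came from embryoid bodies (EBs), aggregates of differentiating cells made from E36 ES cells without and with Eed, by their labels. EBs were formed by removing leukemia inhibitory factor in hanging drops for 48 hours, given 0.5 µM all-trans-retinoic acid between day 2 and day 5, and cultured to day 9. The ES Eed KO and ES wild type libraries came from the undifferentiated E36 cells in 15% serum with leukemia inhibitory factor. The shSetd2 and shCtrl libraries came from E14 ES cells transduced with a lentiviral hairpin against Setd2, the histone H3 lysine 36 methyltransferase, or with a scrambled hairpin, selected with puromycin and harvested on day 4 after selection. The labels give neither the Eed allele nor the number of clones. With 1 library per group no test was possible, and no difference below has a replicate check.

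Levels are given as FPKM (fragments mapped to a transcript, scaled by its length and by the mapped fragments of the library), so they can be set side by side between genes. Differences are of log2(FPKM + 1), which makes them small for genes at low levels. The size rule calls a gene higher or lower if its difference is at least 1 either way and it reaches 1 FPKM in some E36 library (in one of the 2 libraries compared where E14 cells are involved). By that filter 6 Lhx genes counted as expressed, and Lhx3 and Lhx4 did not.

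Facts of the libraries that touch these genes are as follows. FPKM totals lay between 452782 (EB Eed KO) and 598935 (ES wild type). ES cell markers summed to between 2595 and 3784 FPKM in the 4 ES libraries, against 16.9 in EB Eed KO and 220 in EB wild type. Eed mRNA does not check the KO labels, at 21.8 FPKM in EB Eed KO against 25.04 in EB wild type and 77.8 in ES Eed KO against 72.3 in ES wild type. Setd2 had 2.59 in shSetd2 and 16.8 in shCtrl. The library labelled EB Eed KO stood apart from the other 5 in Y-linked transcripts, with Eif2s3y at 0.0628 FPKM there and between 20.4 and 36.9 in the others. The labels do not say whether both Eed KO libraries come from 1 clone, so a difference between clones and differentiation cannot be told apart where the pair is compared. Eif2s3y had 25.7 FPKM in EB wild type, so the same contrast lies within EB Eed KO against EB wild type. There, and in the EB minus ES Eed difference, Eed loss and a difference between clones or lines cannot be told apart either. Genes of chromosome 11, which holds Lhx1, had a median Eed difference of -0.54 in EBs and -0.47 in ES cells relative to the median of all chromosomes, over genes that reach 5 FPKM. For chromosome 11 the median was also -0.46 between shCtrl and ES wild type, a pair with no Eed KO library. Those of chromosome 3, which holds Lhx8, had 0.59 in EBs and 0.34 in ES cells. The part of these chromosome-wide shifts in the values of Lhx1 and Lhx8 was not tested beyond the subtraction given with each gene. On chromosomes 1, 2 and 5, which hold the other members, these medians lay between -0.02 and 0.01. Directions between KO and wild type rest on the labels.

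Promoters of some genes that differed in EBs are shown because they differ in CpG content, and mammalian Polycomb complexes are known to bind CpG-rich promoters. The sequences are from RefSeq on GRCm38.p6, run 5′ to 3′ along the gene from 250 bases before the start to 50 after it, and have each CG dinucleotide in capitals. Lhx1 and Lhx2 are among the genes lower in EB Eed KO than in EB wild type, and Lhx6 and Lhx8 are those higher. Where RefSeq lists several starts, the window with the most CG is given. It was not matched to the start of the measured transcript, so for Lhx2 and Lhx6 it may belong to another start. They lie at chr11:84525485-84525784 (minus strand), chr2:38339031-38339330 (plus), chr2:36104484-36104783 (minus) and chr3:154330511-154330810 (minus).
Lhx1: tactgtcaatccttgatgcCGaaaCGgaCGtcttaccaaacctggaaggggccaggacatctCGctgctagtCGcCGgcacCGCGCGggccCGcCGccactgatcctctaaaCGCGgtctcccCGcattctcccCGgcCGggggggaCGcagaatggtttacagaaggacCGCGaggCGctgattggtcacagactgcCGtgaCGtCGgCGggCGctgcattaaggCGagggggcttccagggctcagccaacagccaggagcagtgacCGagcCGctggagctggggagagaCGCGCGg
Lhx2: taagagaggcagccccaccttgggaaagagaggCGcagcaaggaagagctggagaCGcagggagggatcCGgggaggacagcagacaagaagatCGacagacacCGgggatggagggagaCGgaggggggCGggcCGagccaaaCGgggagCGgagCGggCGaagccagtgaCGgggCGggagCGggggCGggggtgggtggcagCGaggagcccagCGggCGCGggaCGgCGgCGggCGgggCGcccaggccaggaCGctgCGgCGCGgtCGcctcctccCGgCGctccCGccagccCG
Lhx6: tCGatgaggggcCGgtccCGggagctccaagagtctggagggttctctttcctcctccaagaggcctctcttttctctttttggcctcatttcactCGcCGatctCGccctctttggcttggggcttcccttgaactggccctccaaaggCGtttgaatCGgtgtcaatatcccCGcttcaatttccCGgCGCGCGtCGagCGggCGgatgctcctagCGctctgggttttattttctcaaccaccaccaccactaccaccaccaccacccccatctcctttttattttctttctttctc
Lhx8: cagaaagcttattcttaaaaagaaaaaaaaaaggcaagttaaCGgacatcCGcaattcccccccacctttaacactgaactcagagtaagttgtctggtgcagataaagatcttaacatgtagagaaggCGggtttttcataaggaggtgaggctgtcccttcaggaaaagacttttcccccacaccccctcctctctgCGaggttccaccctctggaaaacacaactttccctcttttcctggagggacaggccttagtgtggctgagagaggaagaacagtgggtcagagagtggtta

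The Lhx1 window holds 31 CG and the Lhx2 window 34, and 10.6% and 7.7% of all 32851 promoter windows in the table hold as many or more. The Lhx6 window holds 17, a count reached by 31.4% of windows. The other Lhx2 window holds 29 CG, and the other Lhx6 windows hold 16 and 11. The Lhx8 window holds only 4, below the median of 7 over all windows. The Lhx9 window holds 6, also below that median, although Lhx9 was lower in EB Eed KO. The Lhx4 window holds 19. In all, 11 windows matched 7 of the 8 genes, and Lhx5, also lower in EB Eed KO, had none. The CG count thus does not divide the genes lower in EBs from those higher. TAATTA, a core motif of homeodomain binding, and AGGTCA, a core motif of retinoic acid receptors, were in 0 of the 11 on either strand, against 5.3% and 16.3% of all windows. The TATA motif TATAAA was in 2 of 11 on either strand, 1 of Lhx3 and 1 of Lhx6, against 13.6% of all windows.

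The levels divide the family. Summed over all transcripts of the 8 genes, the libraries had 15.6 FPKM in EB Eed KO, 36.02 in EB wild type, 5.06 in ES Eed KO, 1.66 in ES wild type, 1.46 in shSetd2 and 1.71 in shCtrl. The family was therefore most abundant in EBs, where Lhx2 alone made up 48.6% of the sum in EB Eed KO and 50.3% in EB wild type. In EB wild type the order from high to low was Lhx2, Lhx1, Lhx9, Lhx5, Lhx6, Lhx8, Lhx3 and Lhx4. In EB Eed KO it was Lhx2, Lhx8, Lhx6, Lhx9, Lhx1, Lhx4, Lhx5 and Lhx3, so that Lhx1 stood second in EB wild type and below Lhx6, Lhx8 and Lhx9 in EB Eed KO. Without replicates, the spread that would say which neighbours in these orders differ is unknown.

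**Figure D1:**
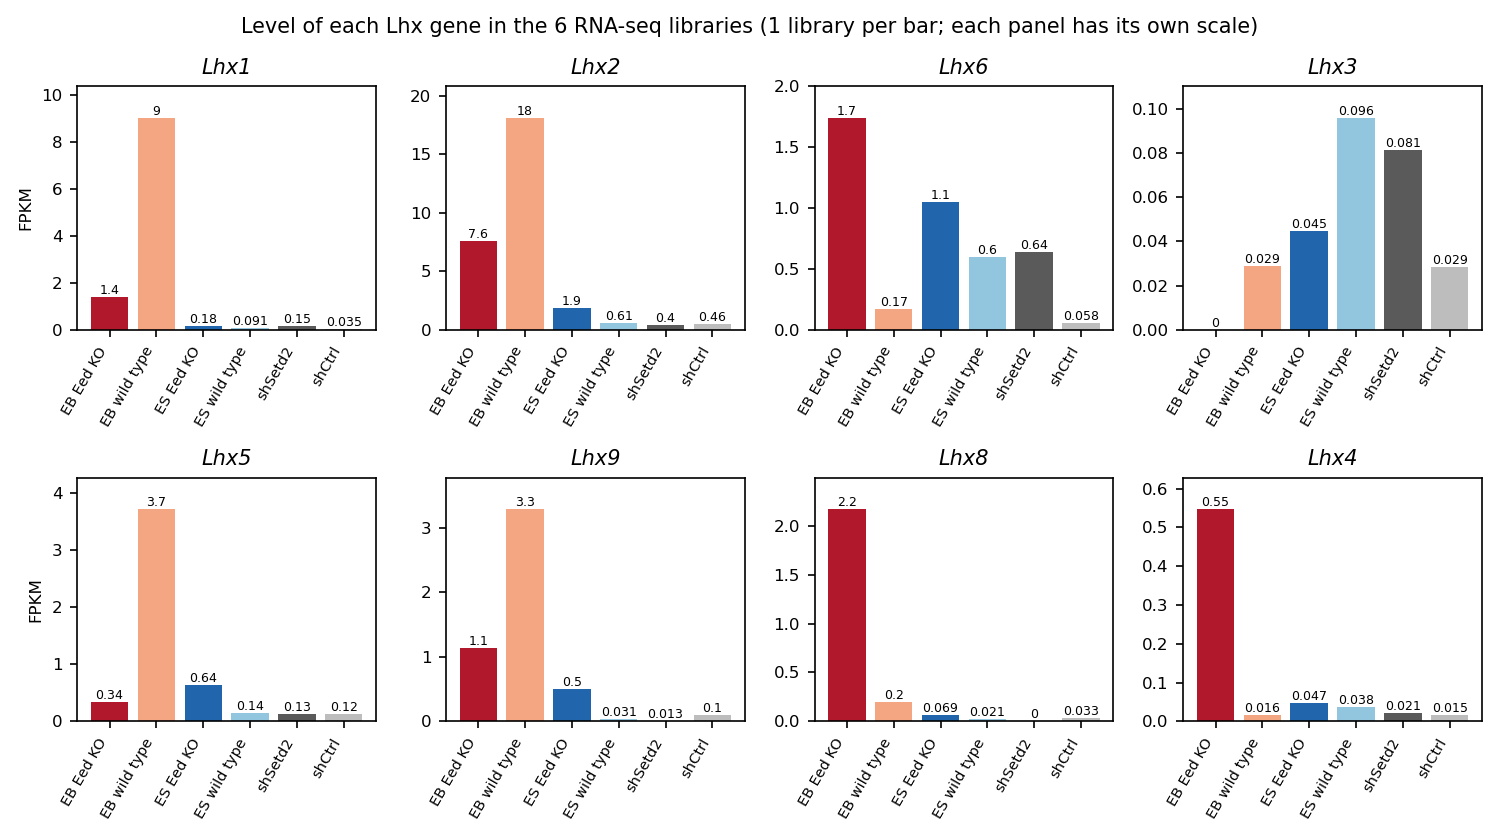
FPKM of each Lhx gene (its transcript with the highest mean) in the 6 libraries, 1 bar per library and a linear scale per panel, with related genes in the same column. Lhx1, Lhx5, Lhx2 and Lhx9 are highest in EB wild type, Lhx6, Lhx8 and Lhx4 are highest in EB Eed KO, and Lhx3 stays under 0.1 in every library.

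The libraries labelled EB Eed KO and EB wild type set differentiating cells without and with Eed, by their labels, against each other. All 6 expressed Lhx genes passed the size rule, 4 lower and 2 higher. Over 14772 expressed genes, 9.82% were lower, 7.68% higher and 17.5% either. Lhx5 reached 1 FPKM only in EB wild type and Lhx8 only in EB Eed KO. Each passed the filter through the library where it was high, so its direction is not independent of the filter. The median of the 6 was -1.08 against -0.14 for all expressed genes. Each Lhx pair with both genes expressed took the same direction: Lhx1 and Lhx5 were lower, Lhx2 and Lhx9 were lower, and Lhx6 and Lhx8 were higher. RNA from whole EBs cannot tell fewer cells of a type from less RNA per cell.

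Lhx1, needed for head formation in the gastrula and expressed in spinal interneurons and the nephric duct, is a single transcript (NM_008498, mm9 chromosome 11, 84332881 to 84339036). It had 1.40 FPKM in EB Eed KO, 9.02 in EB wild type, 0.182 in ES Eed KO, 0.0907 in ES wild type, 0.148 in shSetd2 and 0.0352 in shCtrl. Only the EB libraries exceed 1, and EB Eed KO is the lower of them. It was 6.45-fold lower in EB Eed KO than in EB wild type, a difference of -2.06. After subtraction of the distance between the median of chromosome 11 and that of all genes, a step added after seeing the data, it was -1.52, still past the size rule.

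Next to Lhx1, Lhx1os, a non-coding RNA, starts 125 bases beyond the end of the Lhx1 locus in the deposited coordinates. It had 3.76 FPKM in EB Eed KO, 7.10 in EB wild type and between 0 and 0.152 in the ES libraries. Like Lhx1 it was seen almost wholly in EBs, and its difference of -0.77 in EBs was short of the size rule. The gene on the other side, Aatf, had 11.6 in EB Eed KO and 20.3 in EB wild type, a difference of -0.76. It was expressed in all 6 libraries, unlike Lhx1. The differences of Lhx1os and Aatf were close to the median of -0.72 over chromosome 11. The loci of Lhx1 and Lhx1os do not overlap in the table, although the library kit does not mark strand.

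Lhx5, the relative of Lhx1 that acts in hippocampal and forebrain development, lies on chromosome 5 (NM_008499, mm9, 120881895 to 120891466). It had 0.34 FPKM in EB Eed KO, 3.72 in EB wild type, 0.637 in ES Eed KO, 0.138 in ES wild type, 0.130 in shSetd2 and 0.120 in shCtrl. EB wild type was the only library above 1, and EB Eed KO lay below even ES Eed KO. Lhx5 was 10.9-fold lower in EB Eed KO than in EB wild type, a difference of -1.82. The 5 neighbours within 100 kb had differences between -0.15 and 0.84 in EBs, and none passed the size rule.

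Lhx2, which patterns the eye field, cortex and limb and marks dorsal commissural neurons, was the most abundant member in the E36 libraries (NM_010710, mm9 chromosome 2, 38206828 to 38225248). It had 7.60 FPKM in EB Eed KO, 18.1 in EB wild type, 1.87 in ES Eed KO, 0.610 in ES wild type, 0.397 in shSetd2 and 0.459 in shCtrl. Both EB libraries were above all ES libraries, and ES Eed KO was above the other 3 ES libraries. The EB difference was -1.15, a 2.38-fold lower FPKM. With the distance of chromosome 2 from all genes subtracted it was -1.13. With the median of all genes (-0.18) taken off as well it was -0.95, short of the size rule.

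Lhx9, the relative of Lhx2 that is needed for gonad formation and is found with it in dorsal interneurons, has 3 transcripts at 1 locus (mm9 chromosome 1, 140721763 to 140744156). The main one, NM_001042577, had 1.14 FPKM in EB Eed KO, 3.29 in EB wild type, 0.497 in ES Eed KO, 0.0309 in ES wild type, 0.0127 in shSetd2 and 0.102 in shCtrl. It held 77.9% of the summed Lhx9 FPKM in EB Eed KO and 72.4% in EB wild type. The EB difference of -1.004, or 2.89-fold lower FPKM, lay just past the size rule, and that of Lhx2 was the next in size. With median-of-ratios scaling, which moves the median of all genes to -0.04, the Lhx9 difference was -0.90 and no longer passed, while the sum of the transcripts gave -1.17. With FPKM totals made equal at their mean it was -0.96, also short of the rule.

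The transcript NM_010714 of Lhx9 had 0.0855 FPKM in EB Eed KO and 0.889 in EB wild type, and NM_001025565 had 0.238 in EB Eed KO and 0.365 in EB wild type. All 3 Lhx9 transcripts were thus lower in EB Eed KO than in EB wild type, to different degrees. Cuffdiff divides reads among the transcripts of a locus, and the error of that split is unknown here.

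Lhx8, a factor of cholinergic neurons of the basal forebrain, tooth and oocyte, was listed at 0 or near it in ES cells (NM_010713, mm9 chromosome 3, 153969258 to 153993524). It had 2.17 FPKM in EB Eed KO, 0.201 in EB wild type, 0.0690 in ES Eed KO, 0.0210 in ES wild type, 0 in shSetd2 and 0.0333 in shCtrl. EB Eed KO stood alone above 1. Lhx8 was 10.8-fold higher in EB Eed KO than in EB wild type, with a difference of 1.40. With the distance of chromosome 3 from all genes subtracted the difference was 0.81, short of the size rule. Its neighbour Slc44a5 had a difference of 0.54 and AI606473, whose locus begins 260 bases away, 0.02.

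Lhx6, which specifies cortical interneurons of the medial ganglionic eminence, has 4 transcripts at 1 locus (mm9 chromosome 2, 35937473 to 35960928). NM_001083127, the main one, had 1.74 FPKM in EB Eed KO, 0.174 in EB wild type, 1.05 in ES Eed KO, 0.601 in ES wild type, 0.639 in shSetd2 and 0.0584 in shCtrl. Both Eed KO libraries were above 1 and EB wild type was below every E36 ES library, unlike any member that was lower in EB Eed KO. The EB difference was 1.22, and FPKM was 10.01-fold higher in EB Eed KO than in EB wild type. Of its neighbours, Morn5, Ndufa8 and Mrrf had negative differences in EBs, between -0.47 and -0.49, and Rbm18 had 0.19.

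Summed over its 4 transcripts Lhx6 had 2.13 FPKM in EB Eed KO, 0.390 in EB wild type, 1.57 in ES Eed KO, 0.601 in ES wild type, 0.639 in shSetd2 and 0.895 in shCtrl. The EB difference of the sums was 1.17 and remained past the size rule. In E14 cells the choice of transcript turns the direction: NM_001083127 was higher in shSetd2 than in shCtrl and the sum was lower. The transcript NM_001083126 had 1.1e-05 FPKM in shSetd2 and 0.836 in shCtrl. NM_001083125 and NM_008500 were listed above 0 in EB Eed KO alone (0.0949 and 0.157 FPKM). No direction is therefore given for Lhx6 between the E14 libraries.

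**Figure D2:**
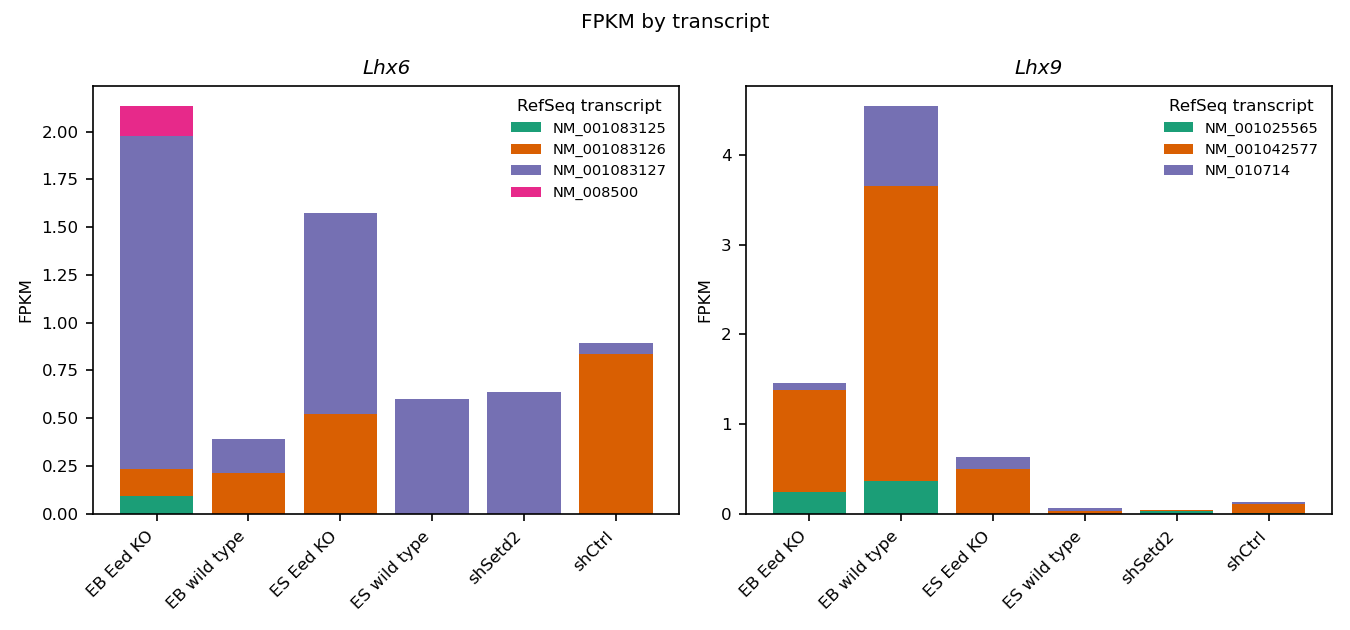
FPKM of each RefSeq transcript of Lhx6 (left) and Lhx9 (right), stacked by library. The Lhx6 total is highest in EB Eed KO (2.13 FPKM) and its split between transcripts differs from library to library, whereas NM_001042577 makes up most of Lhx9 in both EB libraries.

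Lhx3 and Lhx4, which act together in the pituitary and in motor neurons, did not pass the filter. Lhx3 (NM_001039653, mm9 chromosome 2, 26055732 to 26062076) was listed at 0 in EB Eed KO and had 0.0288 in EB wild type, 0.0448 in ES Eed KO, 0.0959 in ES wild type, 0.0814 in shSetd2 and 0.0286 in shCtrl. It was near 0 throughout. Lhx4 (NM_010712, mm9 chromosome 1, 157548824 to 157589157) had 0.547 FPKM in EB Eed KO, 0.0155 in EB wild type, 0.0472 in ES Eed KO, 0.0381 in ES wild type, 0.0211 in shSetd2 and 0.0152 in shCtrl. Lhx4 was thus highest in EB Eed KO by a wide margin at a level under 1 FPKM, with a difference of 0.61. With every library scaled to a total of 1000000 FPKM, which also raises all values against the fixed pseudocount and filter, it counted as expressed with a difference of 1.097.

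The same comparison was made in undifferentiated ES cells. None of the 6 expressed Lhx genes passed the size rule, against 5.84% of all expressed genes (2.82% higher and 3.01% lower). Lhx1, Lhx5, Lhx8 and Lhx9 were under 1 FPKM in both ES libraries and had passed the filter through EBs, so with a pseudocount of 1 they could not be called, and nothing is read from that count. All 6 differences were positive, from 0.07 for Lhx8 to 0.83 for Lhx2, with a median of 0.44 against -0.03 for all expressed genes. All 6 were under 1 FPKM in ES wild type, which leaves little room for a negative value. Nothing is therefore read from the shared sign or the median. With the distance of its own chromosome from all genes subtracted the value of Lhx8 changed sign, to -0.28, and the other 5 stayed positive. Lhx2 had 1.87 FPKM in ES Eed KO and 0.610 in ES wild type, Lhx5 had 0.637 in ES Eed KO and 0.138 in ES wild type, and Lhx9 had 0.497 in ES Eed KO and 0.0309 in ES wild type. These are 3.07-fold, 4.63-fold and 16.1-fold higher FPKM in ES Eed KO, at levels where few fragments may lie behind a value. Lhx2 and Lhx6 were the members at or above 1 FPKM in ES Eed KO, and 0 members reached that level in ES wild type, shSetd2 or shCtrl. With the E14 shCtrl library as the control the count past the size rule was also 0, and Lhx2 had a difference of 0.98. The summed transcripts of Lhx6 had 1.57 FPKM in ES Eed KO and 0.895 in shCtrl. A pseudocount of 0.1 in place of 1 put Lhx2, Lhx5 and Lhx9 past the size rule, at 1.47, 1.63 and 2.19.

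**Figure D3:**
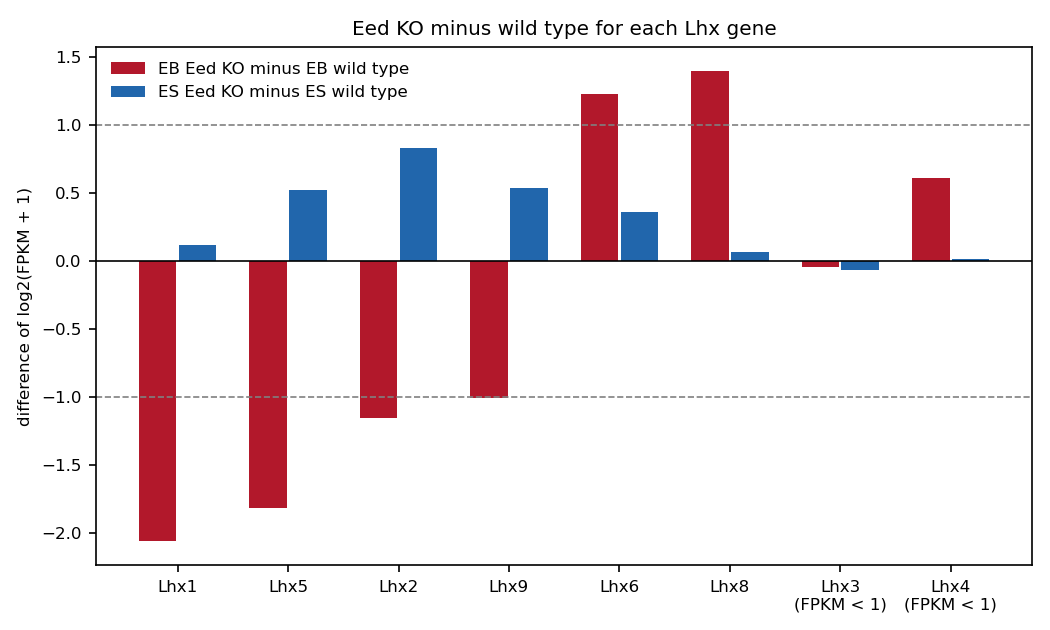
Difference of log2(FPKM + 1) between Eed KO and wild type in EBs (red) and ES cells (blue) for each Lhx gene, with dashed lines at the size rule of 1 either way. In EBs Lhx1, Lhx5, Lhx2 and Lhx9 are at or below -1 and Lhx6 and Lhx8 above 1, while in ES cells every bar lies within the lines.

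The Eed differences in EBs and ES cells were set against each other by subtracting the ES difference from the EB one. Lhx5 (-2.34), Lhx1 (-2.18), Lhx2 (-1.99) and Lhx9 (-1.54) were lower by the size rule, and Lhx8 (1.33) was higher. Lhx6, at 0.87, was within it. That is 5 of 6 members, against 19.2% of all expressed genes (10.1% lower and 9.13% higher). Lhx1, Lhx5, Lhx8 and Lhx9 were under 1 FPKM in both ES libraries, so with a pseudocount of 1 their ES differences could not reach 1. The count therefore carries over the EB differences reported above, and nothing further is read from it. The 4 lower genes had a negative difference in EBs and a positive one in ES cells. For Lhx1, Lhx5 and Lhx9 the positive sign rests on values under 1 FPKM in both ES libraries.

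**Figure D4:**
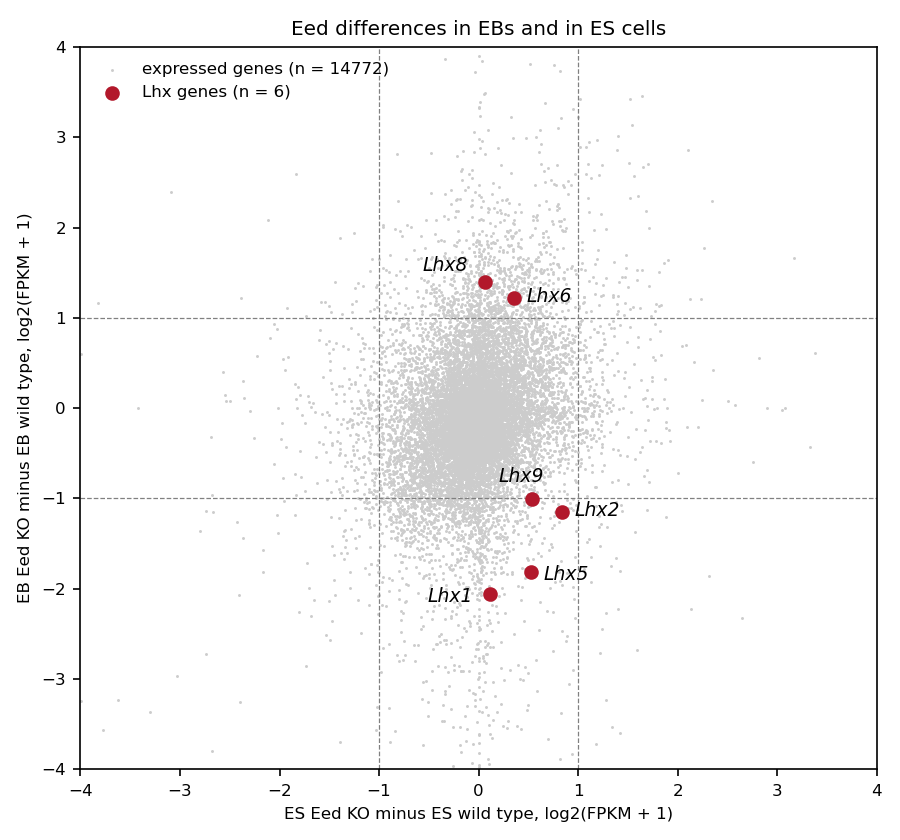
Each expressed gene by its Eed KO minus wild type difference in ES cells (x axis) and in EBs (y axis), both in log2(FPKM + 1), with the Lhx genes in red and 209 genes beyond 4 either way outside the axes. Lhx1, Lhx2, Lhx5 and Lhx9 lie to the lower right, positive in ES cells and negative in EBs, and Lhx6 and Lhx8 lie above 1 in EBs.

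During differentiation the members were gained unevenly. In EB wild type against ES wild type, 4 of the 6 were higher and 0 lower, against 19.3% higher, 14.2% lower and 33.5% either among all expressed genes. These were Lhx2 (3.57), Lhx1 (3.20), Lhx9 (2.06) and Lhx5 (2.05), while Lhx6 (-0.45) and Lhx8 (0.23) were within the size rule. No member reached 1 FPKM in ES wild type, so with a pseudocount of 1 none could be called lower. Lhx1, Lhx5, Lhx8 and Lhx9 passed the filter only through EBs, so nothing is read from these counts against the shares. With a pseudocount of 0.1 Lhx8 was higher (1.31) and Lhx6 lower (-1.36) as well, 5 higher and 1 lower in all. In EB Eed KO against ES Eed KO, 3 were higher and 0 lower, against 19.7% higher, 18.5% lower and 38.3% either among all. They were Lhx2 (1.58), Lhx8 (1.57) and Lhx1 (1.02). Lhx9 (0.52), Lhx6 (0.42) and Lhx5 (-0.29) were within the size rule. Only Lhx2 and Lhx6 reached 1 FPKM in ES Eed KO, so the other members could not be called lower here either. The EB libraries are shared with the Eed comparison above, so these values are not independent of it.

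In E14 cells 0 Lhx genes reached 1 FPKM in shSetd2 or shCtrl, so no member could be called, against 2.41% of 12317 expressed genes (0.706% higher and 1.7% lower). The highest were Lhx6 by the sum of its transcripts and Lhx2, with 0.397 FPKM in shSetd2 and 0.459 in shCtrl. Between shCtrl and ES wild type, the control libraries of the separate lines, again 0 members were at or above 1 FPKM, against 8.79% called of 12747 expressed genes (3.14% higher and 5.65% lower). The ES background of the family was thus low in both lines.

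In EBs the 4 remaining LIM homeodomain genes had 3 higher and 1 lower (median 1.61), against 7.68% higher and 9.82% lower among all expressed genes. With a list of 4 genes nothing is read from this count. Isl2, a motor neuron factor, had 5.75 FPKM in EB Eed KO and 0.232 in EB wild type. Isl1, which acts in motor neurons and cardiac progenitors, had 14.6 in EB Eed KO and 3.69 in EB wild type. Lmx1a, a dorsal midline and dopaminergic factor, had 0.810 in EB Eed KO and 5.37 in EB wild type. Its relative Lmx1b was higher, with 7.0 in EB Eed KO and 1.85 in EB wild type, the 1 pair of 5 whose genes took opposite directions.

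Of 4 LIM-only genes, 0 were higher and 1 lower, and of 6 cofactor genes 0 were higher and 2 lower (medians -0.25 and -0.53), against 9.82% lower among all expressed genes. With lists this short nothing is read from these counts. The LIM-only gene Lmo2, a blood and endothelial regulator, had 0.228 FPKM in EB Eed KO and 1.65 in EB wild type, and Lmo4 had 27.8 in EB Eed KO and 16.6 in EB wild type, within the size rule. Ssbp3, a single-stranded DNA binding protein that stabilises Ldb complexes, had 12.01 in EB Eed KO and 39.7 in EB wild type, and the cofactor Ldb2 had 2.04 in EB Eed KO and 7.38 in EB wild type. Ldb1, the principal cofactor, had 39.98 in EB Eed KO and 48.8 in EB wild type and was within the size rule. In ES cells the LIM homeodomain and LIM-only lists had 0 genes past the size rule, and 1 of the 6 cofactor genes was lower. It was Rlim, the ubiquitin ligase that degrades Ldb proteins, with 15.97 in ES Eed KO and 33.07 in ES wild type.

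Genes of the settings in which Lhx factors act were counted in the same way, against the same background percentages. Some list members passed the filter only through the EB library where they were high. Examples are Six3 through EB Eed KO, and Barhl1 and Robo3 through EB wild type. The directions of such members are not independent of the filter, here and in the marker lists below. In the dorsal interneuron list, where Lhx2 and Lhx9 belong, 0 of 8 were higher and 7 lower in EBs (median -3.42). Barhl1, a homeobox gene of these neurons, had 2.32e-06 FPKM in EB Eed KO and 18.3 in EB wild type. Atoh1, the proneural factor of these cells, had 0.0962 FPKM in EB Eed KO and 15.3 in EB wild type. The axon receptor Robo3 had 0.0786 in EB Eed KO and 21.8 in EB wild type. Of 11 genes of V0, V1 and dorsal Pax2 interneurons, settings of Lhx1 and Lhx5, 0 were higher and 2 lower (median -0.21), against 17.5% called either way among all expressed genes, so the list was near the background. The motor neuron list had 3 higher and 2 lower of 7. Its proneural factor Neurog2 had 0.291 in EB Eed KO and 11.7 in EB wild type. The V2 interneuron list had 2 higher and 0 lower of 5, Gata2 and Gata3.

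In the ventral forebrain and cortical interneuron list, a setting of Lhx6 and Lhx8, 4 were higher and 5 lower of 12 (median -0.77). The 4 higher genes, named after their values were seen, were the homeobox genes Dlx1, Dlx2, Dlx5 and Dlx6, with differences from 1.48 to 2.14. The interneuron peptide Sst, with 4.13 FPKM in EB Eed KO and 24.3 in EB wild type, was among those lower. Nkx2-1, which lies upstream of Lhx6 in the ventral forebrain, had 0.383 in EB Eed KO, was listed at 0 in the other 5 libraries and did not pass the filter. The eye field and telencephalon list had 6 higher and 0 lower of 9 (median 1.301). Six3, an anterior forebrain factor, had 4.14 in EB Eed KO and 0.140 in EB wild type. The eye field gene Vax2 had 11.1 in EB Eed KO and 2.06 in EB wild type, a direction unlike that of Lhx2.

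Outside the nervous system, the gonad list had 4 higher and 2 lower of 8 expressed genes out of 10 listed (median 1.09). Of those higher, Wt1 had 29.5 FPKM in EB Eed KO and 6.69 in EB wild type, and Gata4 had 24.8 in EB Eed KO and 3.30 in EB wild type. Those lower were Sox9, with 6.25 in EB Eed KO and 14.6 in EB wild type, and Nr0b1, with 0.0805 in EB Eed KO and 1.17 in EB wild type. Nr5a1 and Amh did not pass the filter. Wt1 is also in the kidney list. The kidney list had 3 higher and 1 lower of 9 (median 0.44), with Six2 at 14.98 in EB Eed KO and 2.38 in EB wild type. Pax8, of the kidney list, was lower, with 0.254 in EB Eed KO and 2.51 in EB wild type. The anterior endoderm and organiser list had 2 higher and 1 lower of 9 (median 0.21) and the pituitary list 2 higher and 0 lower of 4 (median 0.51), with Pitx1, a pituitary and hindlimb factor, at 52.8 FPKM in EB Eed KO and 1.39 in EB wild type. In ES cells the largest counts among these lists were 3 higher and 1 lower of 9 for the eye field and 2 higher and 0 lower of 4 for the pituitary. Vax2 had 3.63 FPKM in ES Eed KO and 0.412 in ES wild type. Sall1, a kidney regulator also expressed in ES cells, had 15.96 in ES Eed KO and 59.5 in ES wild type.

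Cell type markers also differed between the EB libraries. Among all expressed genes 7.68% were higher and 9.82% lower in EB Eed KO than in EB wild type. The 7 neuron markers were all lower, with a summed level of 5.64 FPKM in EB Eed KO and 503 in EB wild type and Map2 listed at 0 in EB Eed KO. Of 4 neural progenitor markers 0 were higher and 3 lower, with sums of 10.05 FPKM in EB Eed KO and 201 in EB wild type and Fabp7 listed at 0 in EB Eed KO. The 5 ES cell markers were all lower. Of 5 mesoderm and fibroblast markers 3 were higher and 0 lower, with sums of 1453 in EB Eed KO and 665 in EB wild type. Of 5 extraembryonic endoderm markers, the 2 expressed ones, Gata4 and Gata6, were higher, with list sums of 78.8 in EB Eed KO and 22.6 in EB wild type. Gata6 made up most of both sums (52.6 and 17.6), and Gata4 is also in the gonad list. The others were under 1 FPKM and mixed. In EB Eed KO and EB wild type, Sox17 had 0.420 and 0.826, Afp 0.290 and 0.339, and Sox7 0.747 and 0.472. The part of cell makeup in these marker values and in the Lhx values was not tested. In ES cells the neuron markers summed to 160 in ES Eed KO and 197 in ES wild type, and 0 of the 7 were higher and 1 lower.

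**Figure D5:**
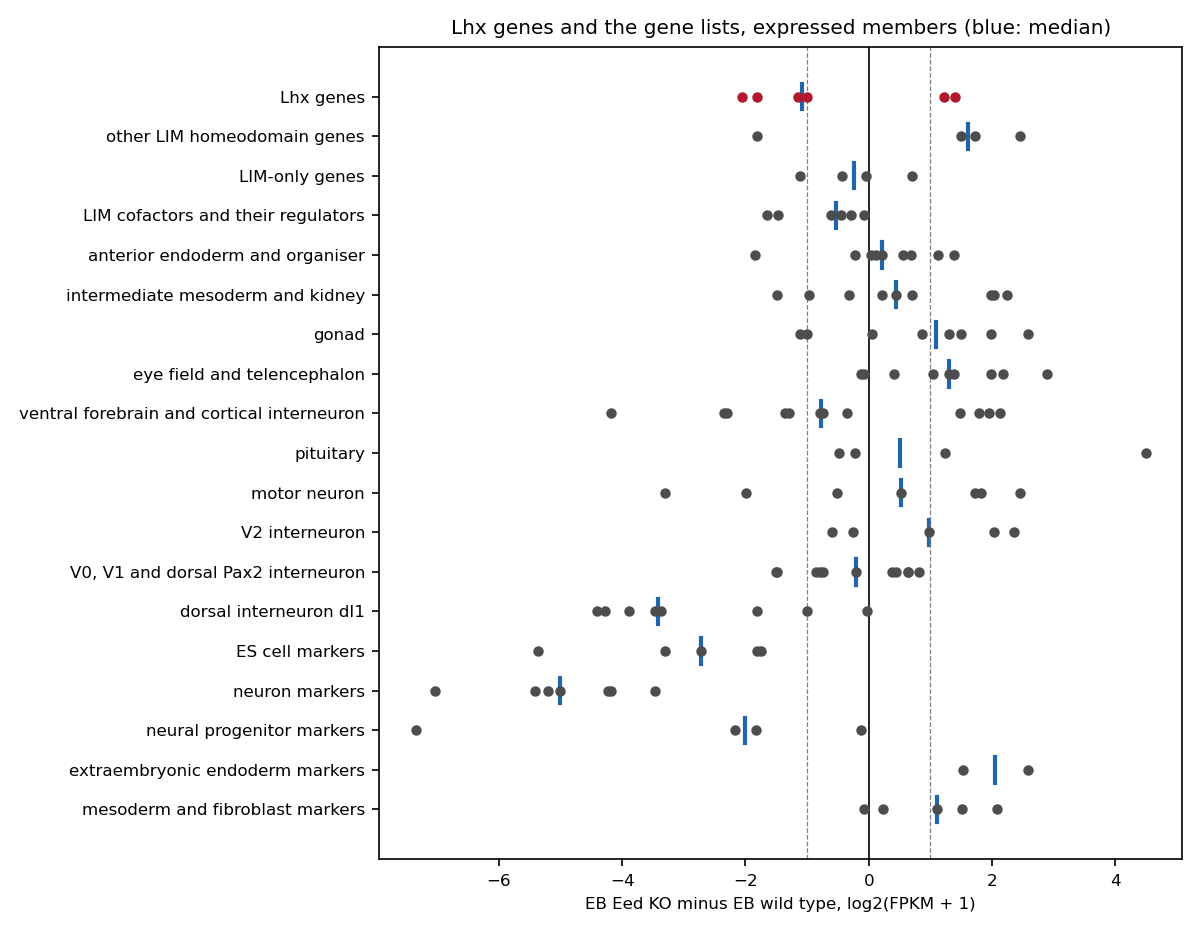
Difference of log2(FPKM + 1) between EB Eed KO and EB wild type for the expressed members of the Lhx family (red) and of each gene list (grey), with the median in blue and dashed lines at the size rule. The Lhx genes fall into a lower group of 4 and an upper group of 2, and the dorsal interneuron and neuron marker lists have the lowest medians among the neural lists (-3.42 and -5.01).

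For each expressed member, the genes with the most similar profile were those whose log2(FPKM + 1) lay nearest in whichever of the 6 libraries differed most. Lhx1 was nearest to Ebf2, a neuronal differentiation factor, within 0.06 in every library, and to the non-coding RNA Hoxaas3, within 0.14. Lhx8 was nearest to Dlx6os1, a non-coding RNA of the Dlx5 and Dlx6 locus, within 0.06, and to the cartilage collagen gene Col9a1, within 0.10. Lhx5 was nearest to the protocadherin Pcdh8 and the pentraxin Nptx1 (both within 0.26). Lhx9 was nearest to Fam71e1 (0.25) and 5930403L14Rik (0.26), and Lhx6 to Nkx2-4 (0.23) and Nrip3 (0.28). The Lhx6 match uses NM_001083127 alone, with 0.0584 FPKM in shCtrl where the sum of its transcripts was 0.895. It therefore depends on the choice of transcript. The profiles nearest to Lhx2 lay farther off, those of Mira and Fgf11, within 0.41 and 0.45. Each profile rests on 6 single libraries. Lhx1 and Lhx8 were near 0 in every ES library, where any gene near 0 matches them, so their matches rest mainly on the EB values.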

How the data were processed

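The deposited values are FPKM for RefSeq transcripts, 1 column per RNA-seq library. TopHat, Cuffdiff and mm9 are named in the submitters' processing notes. Their versions, the annotation release and any scaling step were not given in the sources used here, and none was assumed. Libraries were made with a TruSeq RNA v2 kit, per the labels' protocols. The 12 ChIP-seq samples were not analysed here.

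Of 29851 transcripts, 29300 were matched to a symbol through a RefSeq table of GRCm38.p6, and each of the 551 others was counted as a gene of its own. Each gene is represented by whichever of its transcripts had the highest average FPKM. Coordinates are on mm9, counted from 1. Differences used a pseudocount of 1, the size rule was 1 and the expression filter was FPKM of at least 1. There were 7 comparisons. Fragment totals were not used here, so the depth behind a value is unknown. From the most common ratio of low values, relative depth was 1 in ES wild type and between 0.8 (EB Eed KO) and 1.21 (shCtrl) in the others.

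The members and lists were chosen with earlier results of these data known. Genes were named by a rule that takes all 8 Lhx genes, the 2 nearest profiles of each expressed member, and per list up to 3 genes with the largest EB difference and 1 with the largest ES difference. Dlx1, Dlx2, Dlx5, Dlx6, Lmx1b, Ldb1, Nkx2-1, Sox9, Nr0b1, Nr5a1, Amh, the Y-linked gene, the neighbours and the pairing of related genes were chosen after their values were seen. Some genes that the rule takes are not reported here. The functions were tested on simulated data. Python 3.11.15, pandas 2.3.3, NumPy 2.4.6 and Matplotlib 3.10.9 were used.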

Additional observations from a re-analysis of the deposited data

Results flagged for a closer look

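The Eed difference had opposite signs in EBs and ES cells for 4 Lhx genes. The EB difference minus the ES difference was -2.18 for Lhx1 (-2.06 in EBs and 0.12 in ES cells), -1.99 for Lhx2 (-1.15 in EBs and 0.83 in ES cells), -2.34 for Lhx5 (-1.82 in EBs and 0.53 in ES cells) and -1.54 for Lhx9 (-1.004 in EBs and 0.54 in ES cells). Lhx1, Lhx5 and Lhx9 were under 1 FPKM in both ES libraries, so their ES sign rests on low values and no opposite effect is read from it. With 1 library per group these differences were not tested.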

How the results depend on the processing

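Of 60 recounts of Lhx genes past the size rule with at least 1 expressed member, 52 stayed within 1.5 times the reported count. In ES Eed KO against ES wild type the count of 0 became 3 with a pseudocount of 0.1, 1 with a pseudocount of 0.5 and 1 with totals of 1000000 FPKM (Lhx2 in each), a setting that also raises all values against the fixed pseudocount and filter. With totals made equal at their mean it stayed 0. Requiring FPKM of at least 5 left Lhx1 and Lhx2 to be counted and gave 2 in EB Eed KO against EB wild type, 2 in EB wild type against ES wild type and 2 for the EB minus ES Eed difference. Chosen after seeing the data, subtraction of the whole median of each gene's chromosome, which includes the -0.18 of all genes, left 3 genes (Lhx1, Lhx5 and Lhx6) in EB Eed KO against EB wild type in place of 6. Subtraction of only the chromosome's distance from all genes left 5 (without Lhx8), and equal totals at their mean, also added later, left 5 (without Lhx9). In shSetd2 against shCtrl, totals of 1000000 FPKM gave 1 in place of 0 (Lhx6, whose summed transcripts had the other direction), and equal totals at their mean gave 0. Over 280 recomputed differences of single genes, leaving out filters, which cannot alter them, 0 called differences changed sign, 7 called ones fell short of the size rule and 16 others passed it. Without replicates no error can be put on any difference, and low FPKM values limit Lhx3, Lhx4, Lhx6 and Lhx8 most. No paired analysis was possible because each group has 1 library.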
